A study of Rattus norvegicus with 24 samples.

Results

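Hippocampal dissections of female rats differed in how much choroid plexus they carried, and 17 of the 24 sequenced libraries were compared here for that difference because they held little sign of neighbouring thalamus. A library was kept where Shox2, a transcription factor gene of the thalamus, measured under 100 normalised counts. The kept libraries were then chosen by Ttr, the transthyretin gene that marks choroid plexus epithelium, and split into 2 classes: 6 libraries with at least 5000 normalised counts are called choroid-rich below, and 11 with less are called choroid-poor. The libraries were thus selected on the measured levels of both genes, whose values describe the choice and are no result.

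All rats were 6 months old at surgery. In the SHAM group the ovaries were left in place and vehicle was given for 7 weeks (n = 7, of which 6 libraries were kept, 3 choroid-rich and 3 choroid-poor). OVX rats were ovariectomised and received vehicle for 7 weeks (n = 7, 4 kept, 1 and 3). Rats of the group labelled OVX_E2_Prevention, called Prevention, were ovariectomised and received the estrogen E2 (estradiol) for 5 weeks (n = 5, 3 kept, 1 and 2). Rats of the group labelled OVX_E2_Treatment, called Treatment, were ovariectomised and received vehicle for 3 weeks and E2 for 2 weeks (n = 5, 4 kept, 1 and 3). No strain, genotype, pooling of animals or dissection record is given in the labels used here, and nothing in them ties a library to 1 animal, so the p-values measure the spread between these libraries, which may be partly technical.

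The highest Shox2 value kept was 40.0 (SHAM replicate 7) and the lowest left out was 134 (OVX replicate 4). On the Ttr scale the library just inside the choroid-rich class was Prevention replicate 2 at 9262, and the one just outside was Prevention replicate 3 at 3213. The other choroid-rich libraries were Treatment replicate 5 (12498), SHAM replicate 1 (16597), SHAM replicate 3 (23186), OVX replicate 7 (30370) and SHAM replicate 7 (136652), and the lowest choroid-poor value was 281. SHAM replicate 7 stood apart at the top of this scale. Without it, 76 genes were called in place of 91, and 67 of them were among the 91. A further difference, not named in the labels, is that LOC257642 exceeded 16 on the log2 scale in 1 of the 6 choroid-rich and 4 of the 11 choroid-poor libraries. Libraries above and under this level are called the high and low LOC257642 set below. Column totals of the kept libraries ran from 35.9 to 38.8 M (mega) normalised counts.

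**Figure D1:**
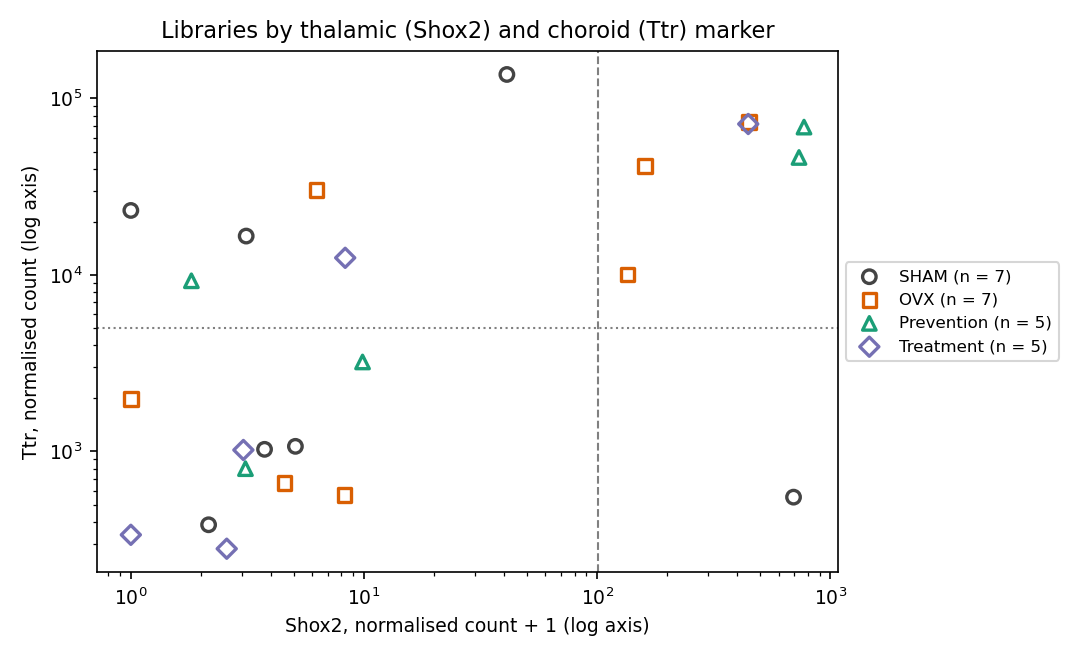
Each point is 1 of the 24 libraries, with Shox2 (normalised count + 1) on the horizontal log axis, Ttr (normalised count) on the vertical log axis, and shape and colour for the group. The dashed line marks Shox2 of 100 and the dotted line Ttr of 5000; the 6 points at upper left are the choroid-rich libraries, the 11 at lower left the choroid-poor ones, and the 7 at right were left out.

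The choroid plexus is a fringe of tissue that hangs into the ventricles, where it lies against the fimbria of the hippocampus. A single layer of cuboidal epithelium secretes cerebrospinal fluid by moving ions, bicarbonate and water, carries hormones and vitamins between blood and fluid, and rests on a stroma of fibroblasts, macrophages and fenestrated capillaries. The ventricle wall beside it is lined by ependyma, whose many motile cilia stir the fluid. Choroid epithelial cells bear cilia too, so ciliary genes are shared by both.

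The start regions of 3 genes that moved with the choroid content are shown to illustrate a motif search, made because Otx2, a homeodomain factor of choroid plexus, belongs to a family that recognises TAATCC. Mfrp encodes a frizzled-related membrane protein, Kcnj13 the apical potassium channel Kir7.1, and Kl the anti-ageing protein klotho. Each sequence is the 250 bases before the RefSeq gene start in build GRCr8, written along the gene. Mfrp lies on the plus strand (chr8:53342284-53342533), Kcnj13 on the minus strand (chr9:95518987-95519236) and Kl on the plus strand (chr12:5325753-5326002), and capitals mark GATTA or its reverse complement TAATC.
Mfrp: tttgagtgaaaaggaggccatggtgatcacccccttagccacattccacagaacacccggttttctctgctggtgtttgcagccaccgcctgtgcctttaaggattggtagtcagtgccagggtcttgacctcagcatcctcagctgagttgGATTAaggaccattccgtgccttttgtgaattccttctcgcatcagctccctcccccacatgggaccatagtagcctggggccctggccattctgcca
Kcnj13: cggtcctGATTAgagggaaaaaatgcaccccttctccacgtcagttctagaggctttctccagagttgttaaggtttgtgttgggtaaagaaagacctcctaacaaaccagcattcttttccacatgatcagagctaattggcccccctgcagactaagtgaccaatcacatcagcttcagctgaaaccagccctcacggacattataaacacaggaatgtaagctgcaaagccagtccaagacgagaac
Kl: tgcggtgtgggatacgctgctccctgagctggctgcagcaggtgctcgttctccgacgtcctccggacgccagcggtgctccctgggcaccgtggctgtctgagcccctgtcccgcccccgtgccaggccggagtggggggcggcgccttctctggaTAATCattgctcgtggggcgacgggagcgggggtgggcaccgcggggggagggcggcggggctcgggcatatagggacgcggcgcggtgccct

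These 3 genes were picked from called genes whose window holds GATTA or TAATC, so its presence in them is no result. The Mfrp and Kcnj13 windows hold GATTA and the Kl window TAATC, and the Mfrp window also holds the longer GGATTA, the reverse complement of TAATCC. Of the 84 genes called higher, 55 matched an entry among 33469 RefSeq promoters of 300 bases (250 before the start and 50 after it), searched on both strands. TAATCC was found in 3 of the 55 (5.45%) and in 7.17% of all promoters. GATTA, which lies within the reverse complement of TAATCC, was found in 12 of the 55 (21.8%) and in 22.9% of all promoters. The other letters searched were CATTTG (7 of 55, against 14.3% of all), GTTGCC (3 of 55, against 12.2%), CAGCTG (7 of 55, against 15.1%), TGACCT (10 of 55, against 16.2%) and ATTTGCAT (0 of 55, against 1.78%). A match describes the letters in the window only, and the matched genes are the part of the called genes with an entry.

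Transport, receptor and secretion genes of choroid epithelium were higher in the choroid-rich libraries, by up to 4.58 on the log2 scale, and collagen and solute carrier genes of the stroma were higher with them. Genes of motile cilia, ependyma, endothelium, macrophages and thalamus gave no call. The comparison used limma on log2(normalised count + 1) with treatment group as a covariate, and a gene was called at a Benjamini-Hochberg adjusted p under 0.05 over 16074 tested genes. In all 84 genes were called higher (0.523% of those tested) and 7 lower (0.0435%), with a median change over all tested genes of -0.0035, and 7745 of the 16074 changes were positive. The classes did not overlap, with every choroid-rich value above every choroid-poor value, for 53 tested genes (0.33%), and in the opposite direction for 2 (0.0124%). A gene was tested where it averaged at least 10 over the 17 libraries. Both higher counts hold genes, such as Tmem27, that averaged under 10 in choroid-poor libraries and passed only through their choroid-rich values. A gene called here is one that followed Ttr across these libraries, and since the tissue was measured in bulk, fewer cells of a type and less RNA per cell cannot be told apart.

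The label of the choroid-rich class was checked with its other markers, Kl and Folr1. Klotho, a receptor partner for fibroblast growth factors that choroid epithelium makes in large amounts, ran from 440.3 through a median of 805 to 5474 normalised counts in the choroid-rich libraries. It ran from 30.8 through 43.9 to 160 in the choroid-poor ones. The classes did not overlap, and the change was 4.14 (SE 0.44, limma adjusted p = 0.00038).

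Folr1, the folate receptor that carries folate into the fluid, ran from 150.3 through 254 to 1449 in choroid-rich libraries and from 40.6 through 51.0 to 86.1 in choroid-poor ones. These values did not overlap either, with a change of 2.43 (SE 0.38, limma adjusted p = 0.0047). Both markers thus followed Ttr, and with each of the 17 libraries left out in turn both were still called, the highest adjusted p being 0.046 for Folr1 without OVX replicate 7. Kl also followed the order of Ttr at the edges of the classes: Prevention replicate 3, just under the Ttr threshold, had the highest choroid-poor Kl, 160, and OVX replicate 1 the next, 85.7, while the other 9 lay between 30.8 and 63.8.

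**Figure D2:**
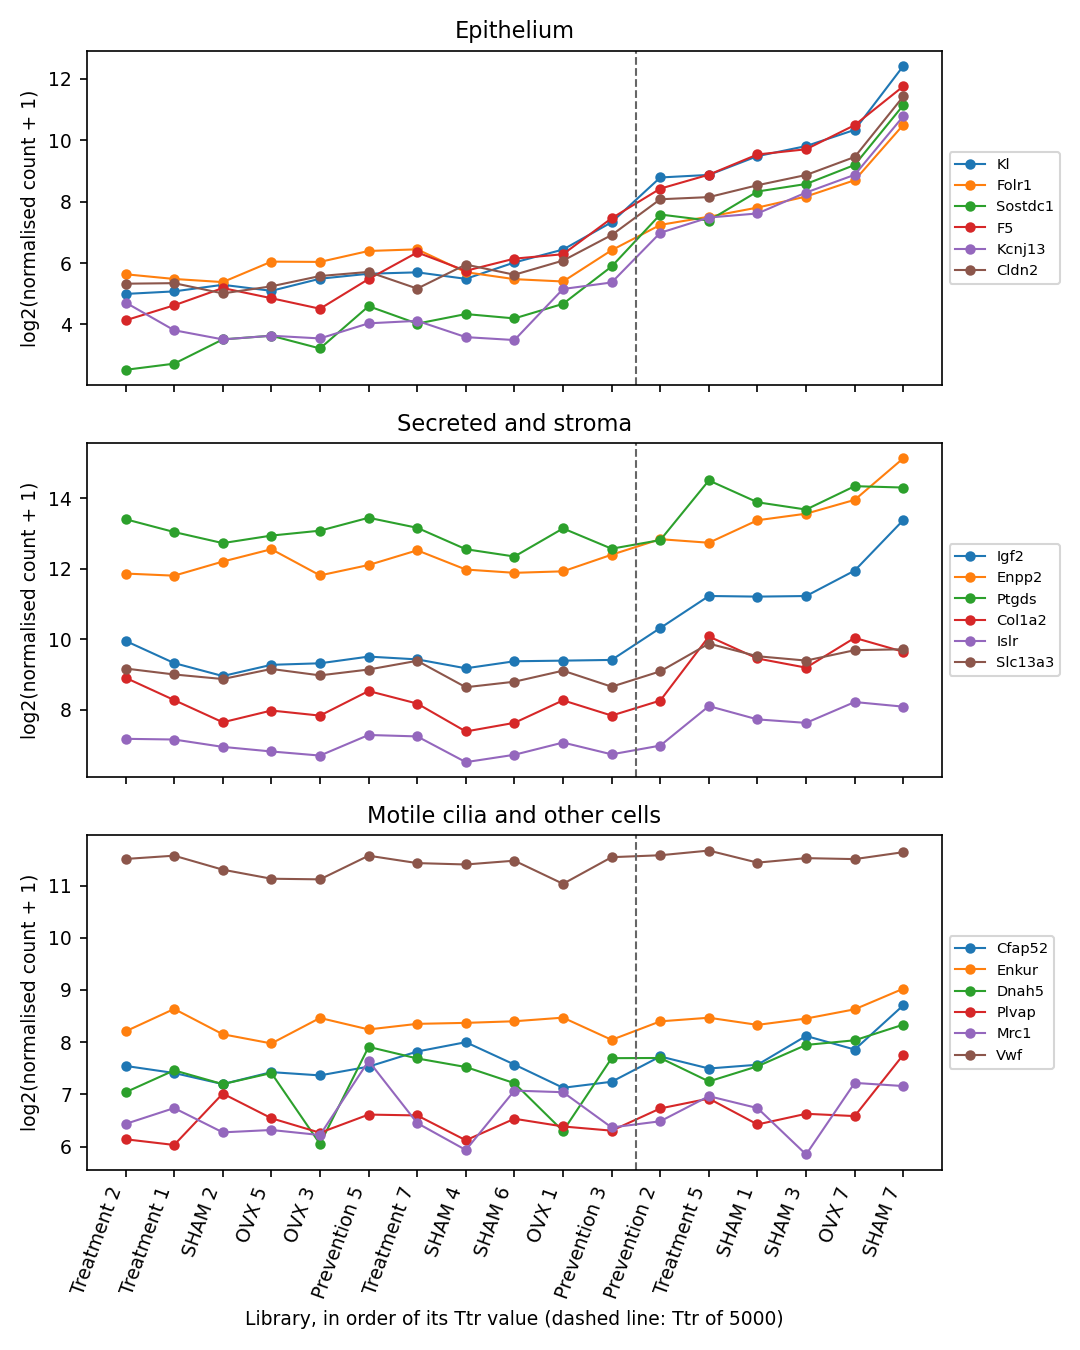
The vertical axes give log2(normalised count + 1) and the horizontal axis the 17 libraries in order of their Ttr value, with the dashed line at Ttr of 5000; lines join the values of 1 gene and carry no further meaning. Kl, Folr1, Sostdc1, F5, Kcnj13 and Cldn2 are higher right of the line in every library, Col1a2, Islr and Ptgds overlap between the classes, and Cfap52, Enkur, Dnah5, Plvap, Mrc1 and Vwf were not called.

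Genes that move ions, bicarbonate and water were higher. Of 15 tested members of that list, 7 were called higher and none lower, all 15 changes were positive, 9 did not overlap between classes, and the median change was 0.79, against -0.0035 over all tested genes. Kcnj13 ran from 126 through 254 to 1757 in choroid-rich and from 10.2 through 13.02 to 40.2 in choroid-poor libraries (change 4.25). Every choroid-rich library lay above every choroid-poor one.

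Slc4a5, a sodium bicarbonate cotransporter of the epithelium, ran from 224 through 499 to 3340 against 23.8 through 36.1 to 123 (change 3.75). Aqp1, the apical water channel, ran from 135 through 341 to 2043 against 23.4 through 35.9 to 83.7 (3.16). Clic6, a chloride intracellular channel family gene, ran from 495 through 1038 to 6474 against 49.6 through 114 to 253 (3.26). None of these overlapped, and each stayed called whichever library was left out.

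The other called members were Trpv4, a calcium channel that senses osmotic and mechanical change (1.99), Slc13a4, a sulfate carrier (1.77), and Kcne2, a potassium channel subunit (1.47). Kcne2 was called at an adjusted p of 0.045 and was lost in 15 of the 17 omissions. Without OVX replicate 7, Slc13a4 (adjusted p = 0.051) and Trpv4 (0.056) also passed out of the call. Slc4a2, an anion exchanger, ran from 1599 to 5694 against 1089 to 1419 and did not overlap, but was not called (0.79, adjusted p = 0.078), and neither was the copper importer gene Slc31a1 (0.45, adjusted p = 0.24). Slc12a2, the cotransporter NKCC1, which neurons and glia also make, overlapped at 4582 to 6503 against 3879 to 5856 (0.20, adjusted p = 0.53), as did the cation channel gene Trpm3 (0.51, adjusted p = 0.22).

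Receptors and carriers showed a wider range of sizes. Of 18 tested members, 8 were called higher and none lower, 17 changes were positive, 6 did not overlap, and the median change was 0.50. Tmem72, a membrane protein gene, ran from 259 through 474 to 3262 against 13.4 through 27.3 to 109 (4.32). Slco1a2, listed under the synonym Slco1a5 as an organic anion transporter, ran from 75.0 through 131 to 966 against 1.87 through 9.14 to 40.6 (4.21). Steap1, a metalloreductase family gene, ran from 20.4 to 157 against 2.75 to 18.9 (2.29). With a choroid-poor mean of 8.72, it met the average of 10 needed for testing only through its choroid-rich values.

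The remaining called receptors and carriers, Prlr, Htr2c and Slc22a8, changed by 0.57 to 2.32, and 10 of the 18 tested members were not called. Prlr, the prolactin receptor, ran from 67.6 through 98.8 to 484 against 8.86 through 26.7 to 73.2, so its classes touched in 1 choroid-poor library, Prevention replicate 3 (2.32, adjusted p = 0.0099). Htr2c, the serotonin receptor for which the choroid plexus is known, ran from 2435 through 2787 to 4115 against 1470 through 2004 to 2534 (0.57, adjusted p = 0.029). Slc22a8, the organic anion transporter OAT3, ran from 460.5 through 572 to 796 against 333 through 380.1 to 424 without overlap (0.62, adjusted p = 0.0027). The Htr2c call was lost in 4 of the 17 omissions, with the highest adjusted p, 0.19, without OVX replicate 7. Prlr (adjusted p = 0.078) and Steap1 (0.057) were also lost without OVX replicate 7.

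Secreted proteins of the plexus gave 7 called higher of 16 tested and none lower, with 16 positive changes, 5 without overlap and a median of 0.69. Sostdc1, a secreted antagonist of BMP and Wnt signals, had the largest change of the named genes, 4.58 (SE 0.47, adjusted p = 0.00038), running from 166 through 350.2 to 2260 against 4.74 through 15.3 to 58.2. F5, coagulation factor V, ran from 342 through 787 to 3459 against 16.5 through 43.5 to 175 (4.12).

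Growth factor genes were high in choroid-poor tissue as well. Igf2, insulin-like growth factor 2, which plexus and meninges release into the fluid, ran from 1278 through 2399 to 10680 against 497 through 664 to 992, with no overlap (2.16, adjusted p = 0.0016). Its binding protein gene Igfbp2 ran from 649 through 1462 to 4666 against 275 through 393 to 547 (1.95). Enpp2, autotaxin, which oligodendrocytes also make, ran from 6838 through 11378 to 36015 against 3578 through 4038 to 6022 (1.44, adjusted p = 0.015).

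Sulf1, which edits heparan sulfate (1.20), and Bmp7, a bone morphogenetic protein (0.96), were called with overlapping classes. Bmp7 was lost in 13 of 17 omissions, Sulf1 in 3. Cp, ceruloplasmin, ran from 314 to 688 against 250.2 to 446 and was not called (0.63, adjusted p = 0.055), nor was Wfdc2 (0.26, adjusted p = 0.61). Among genes called higher, Igf2 and Igfbp2 remained called in every omission, and Enpp2 was lost without OVX replicate 7 (adjusted p = 0.11).

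Transcription factors that pattern the plexus and its roof were positive in 10 of 10 tested members, with a median of 0.48, and none was called. Lmx1a, a roof plate factor, ran from 14.9 to 208 against 0 to 16.2 (2.33, adjusted p = 0.058), with 1 choroid-rich library, Prevention replicate 2, inside the choroid-poor range. With a choroid-poor mean of 9.19, Lmx1a met the average of 10 needed for testing only through its choroid-rich values. Msx1 ran from 330 to 1286 against 252 to 337 (0.75, adjusted p = 0.12), and Zic1, also a gene of cerebellar granule neurons and meninges, from 484 to 1613 against 237 to 1078 (0.89, adjusted p = 0.46).

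Of 13 tested junction and keratin genes, 2 were called higher, 11 were positive and 1 did not overlap (median 0.56). Cldn2, the claudin of the leaky choroidal tight junction, ran from 269 through 418 to 2749 against 31.2 through 46.7 to 119 (3.36), and stayed called in every omission. Spint2, a serine protease inhibitor, overlapped (0.43, adjusted p = 0.045) and was lost in 12 omissions. Keratin genes of simple epithelium were not called: Krt18 ran from 40.0 to 311 against 24.9 to 60.2 (1.07, adjusted p = 0.24), and Krt8 from 71.6 to 480 against 58.5 to 163 (0.81, adjusted p = 0.39).

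**Figure D3:**
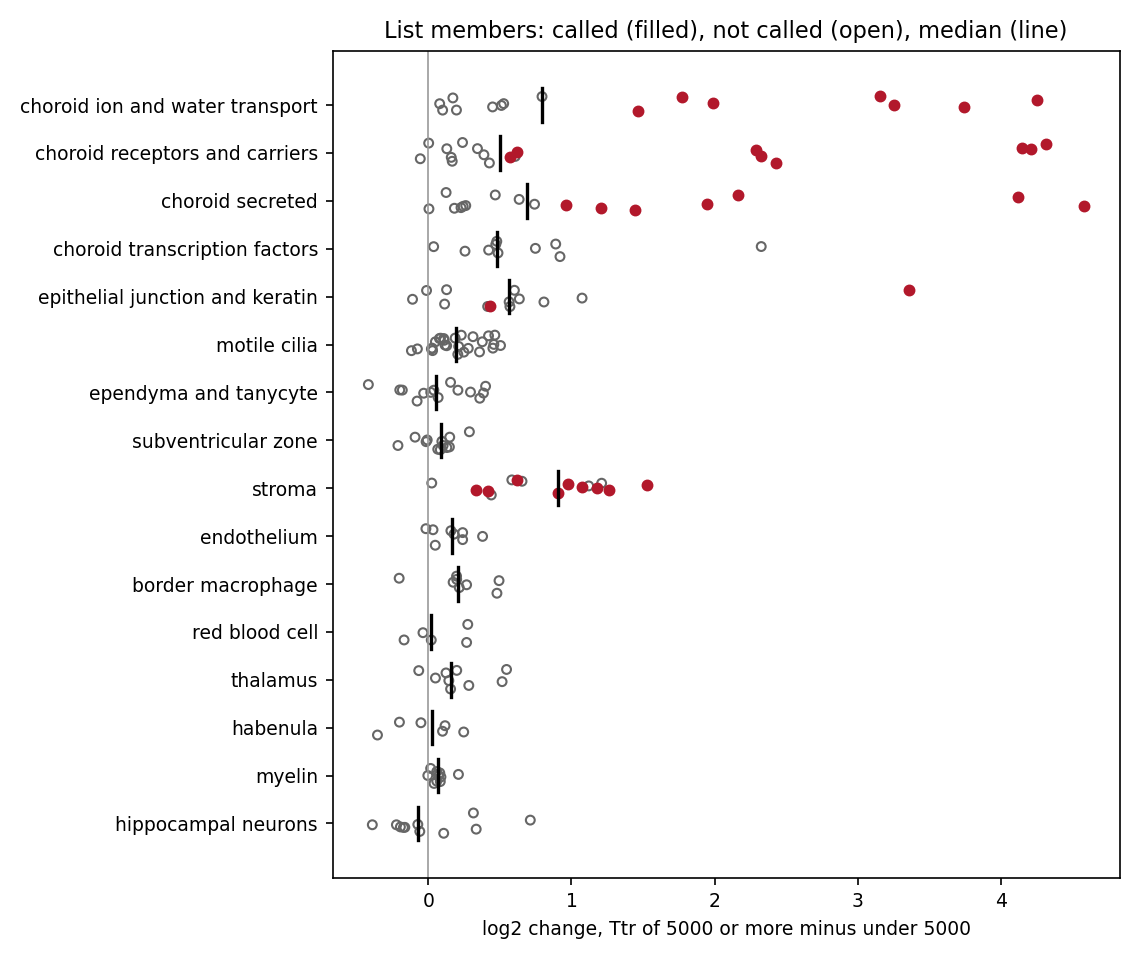
Each point is 1 tested gene, with its log2 change of choroid-rich minus choroid-poor libraries on the horizontal axis and 16 gene lists in rows; filled points passed the test, open points did not, and the black line is the list's median. Filled points occur for the transport, receptor, secreted, junction and stroma lists, with 7, 8, 7, 2 and 9 genes, and the other 11 lists have open points only.

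Of 15 tested stromal genes, 9 were called higher and none lower, all 15 were positive and the median was 0.90, but none was free of overlap. These are genes of the fibroblasts of the plexus and the meninges. Col1a2, a chain of type I collagen, ran from 306 through 751 to 1082 against 166 through 251 to 480 (1.53, adjusted p = 0.0016). It was 1082 in Treatment replicate 5, 701 in SHAM replicate 1, 586 in SHAM replicate 3, 1053 in OVX replicate 7, 801 in SHAM replicate 7 and 306 in Prevention replicate 2. The highest Col1a2 thus belonged to a library low in the order of Ttr, and the lowest to the one just inside the threshold.

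Ptgds, prostaglandin D synthase, a meningeal and oligodendrocyte gene, ran from 7204 through 17702 to 23293 against 5215 through 8440.4 to 11178 (1.07, adjusted p = 0.0099). Also called were Col1a1 (1.18), the matricellular gene Islr (0.90), the GABA carrier gene Slc6a13 (0.98), Aebp1 (0.42) and Fbln1, fibulin 1 (0.33). The dicarboxylate carrier gene Slc13a3 (0.62) and the organic anion transporter gene Slc22a6 (1.26) completed the 9. Col3a1 (1.21, adjusted p = 0.055) and Dcn, decorin (0.44, adjusted p = 0.37), were not called. The number called fell to 2 without OVX replicate 7, to 3 without Treatment replicate 5, to 5 without SHAM replicate 1 and to 5 without SHAM replicate 2, while Col1a2 and Slc13a3 stayed called in every omission.

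Ratios to Kl within each choroid-rich library differed in width between genes. Per 100 normalised counts of Kl, Sostdc1 ran from 35.6 (Treatment replicate 5) to 45.3 (OVX replicate 7), Folr1 from 26.5 to 38.8 and F5 from 63.2 to 111. Col1a2 ran from 14.6 in SHAM replicate 7 to 232 in Treatment replicate 5. Igf2, shared by epithelium and stroma, ran from 195 to 514, and Enpp2, of the secreted list, from 658 to 1666. These ratios compare each gene with Kl between libraries, not the genes with each other. In choroid-poor libraries the median was 251 normalised counts for Col1a2, 664 for Igf2 and 4038 for Enpp2. It was 15.3 for Sostdc1, 51.0 for Folr1 and 43.5 for F5. A level present at little choroid content raises a ratio more where Kl is low, so it can widen the range by arithmetic. All but Sostdc1 had their lowest ratio in SHAM replicate 7, where Kl was highest, 5474. Whether the share of stroma to epithelium varied was not tested.

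**Figure D4:**
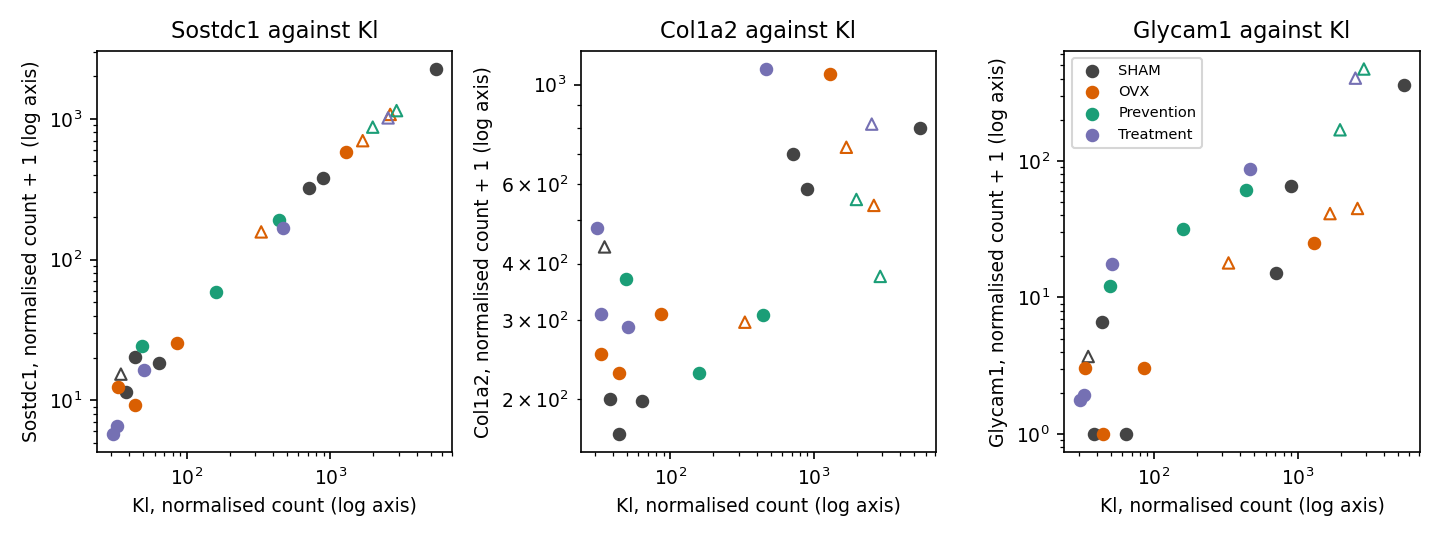
The 3 panels plot Sostdc1, Col1a2 and Glycam1 (normalised count + 1, log axis) against Kl (normalised count, log axis) in all 24 libraries, with colours for the 4 groups, circles for the 17 kept libraries and open triangles for the 7 left out. Per 100 normalised counts of Kl, Sostdc1 ran from 35.6 to 45.3 in choroid-rich and from 15.4 to 47.0 in choroid-poor libraries. Col1a2 ran from 14.6 to 232 in choroid-rich and from 143 to 1556 in choroid-poor libraries. Glycam1 at high Kl is higher in Prevention and Treatment than in OVX. Per 100 normalised counts of Kl, SHAM replicates 3 and 7 lie between these groups at 7.23 and 6.52, and SHAM replicate 1 lies in the range of OVX at 1.97.

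Motile cilia genes had small positive changes and no call. Of 26 tested members 24 were positive, the median was 0.20, and the summed level of the list ran from 8819 to 15028 in choroid-rich and from 8306 to 11437 in choroid-poor libraries. The 15028 belonged to SHAM replicate 7, and the next highest was 11548 in OVX replicate 7. Cfap52, an axonemal gene, ran from 179 through 221 to 417 against 139 through 171 to 255 (0.38, adjusted p = 0.46). Dnah5, an outer dynein arm heavy chain, ran from 151 to 322 against 65.3 to 239 (0.50, adjusted p = 0.50). Enkur, a sperm and cilium calcium channel adaptor, ran from 321 to 519 against 250.6 to 397 (0.25, adjusted p = 0.49). A p that misses the threshold does not show that these genes were equal, and no gene of the list was called when any library was left out.

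Genes of ependyma and tanycytes rather than choroid epithelium were positive in 9 of 14 (median 0.05, none called), and the list's summed level was 73553 to 87052 against 74842 to 96390. Vim, vimentin, came closest, at 2024 to 3126 against 1708 to 2536 (0.36, adjusted p = 0.076), followed by S100a6 (0.39, adjusted p = 0.13). Subventricular precursor genes were positive in 8 of 12 (median 0.09, none called).

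The other cell types in or near the plexus gave no call. Endothelial genes were positive in 7 of 8 (median 0.17, summed level 10656 to 12000 against 9877 to 10783), with Plvap, the diaphragm protein of fenestrated vessels, at 84.8 to 216 against 64.4 to 128 (0.38, adjusted p = 0.55), and Vwf at 2774 to 3255 against 2093 to 3042 (0.18, adjusted p = 0.14). Border macrophage genes were positive in 7 of 8 (median 0.21, summed level 995 to 1921 against 1027 to 2017), with the mannose receptor gene Mrc1 at 56.6 to 148 against 60.1 to 198 (0.20, adjusted p = 0.86). Red blood cell genes were positive in 3 of 5 (median 0.02).

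Neighbouring tissue was checked beside these results. Thalamic genes other than Shox2 were positive in 8 of 9 (median 0.16, none called), and their summed level of 5091 to 6202 lay within the choroid-poor range of 4484 to 6276. Synpo2 was the thalamic gene with the smallest p (0.55, adjusted p = 0.0997), and Prkcd ran from 684 to 1150.3 against 421 to 1242 (0.52, adjusted p = 0.44). Habenular genes were positive in 3 of 6 (median 0.02), and myelin genes in 9 of 10 (median 0.07). Of 11 genes of hippocampal granule and pyramidal cells 4 were positive and none was called (median -0.07, summed level 44653 to 55428 against 44138 to 64749). The 4 of smallest p went both ways. Fibcd1, a CA1 gene, ran from 4133 to 7012 against 4615 to 9848 (-0.39, limma adjusted p = 0.24), and Neurod6 changed by -0.22 (adjusted p = 0.33). C1ql2 (0.31, adjusted p = 0.38) and Dsp (0.71, adjusted p = 0.38) had positive changes. No measured member of these lists was at 0 in all libraries, and the part of each tissue in the results was not tested.

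Of the 91 called genes, 33 were on a list and 58 on none. Mfrp ran from 449 through 894 to 4767 against 29.1 through 76.1 to 179.8 (3.63, adjusted p = 0.00043). Tmem27, a collectrin gene known from kidney, ran from 31.0 to 457 against 0 to 8.14 (4.47), and Pla2g5, a secreted phospholipase A2, from 56.4 to 502 against 9.25 to 27.5 (2.85). Tmem27 averaged 2.64 in choroid-poor libraries, so it met the average of 10 needed for testing only through its choroid-rich values. Prr32, of little known function, ran from 63.8 to 448 against 5.78 to 33.3 (2.95). These 4 did not overlap between classes and stayed called in every omission.

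Several other called genes are best known outside the brain. Abca4, the retinoid transporter of photoreceptors (2.04), and Slc16a8, the lactate carrier of retinal pigment epithelium (2.06), did not overlap. Neither did Ace3, an angiotensin-converting enzyme paralogue (1.33), or the cadherin gene Cdh3 (1.43). Matrix genes on no list included Col8a2 (1.72), Thbs2, thrombospondin 2 (1.61), and Mmp2, a gelatinase (0.80), none with overlap, and the complement gene C7 (1.32) with overlap. Trpc6, a cation channel, differed by the smallest amount of the genes named as higher and still did not overlap, at 885 to 1012 against 775 to 874 (0.21, adjusted p = 0.017). Without OVX replicate 7, these 9 genes lost their calls. Of the called genes on no list, Mfrp, Pla2g5 and Prr32 were named by rule and the other higher ones after their values were seen.

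The 7 lower genes moved by less. Ppp1r1c, a protein phosphatase 1 inhibitor gene, ran from 10.9 through 14.5 to 17.3 in choroid-rich against 18.2 through 24.5 to 47.0 in choroid-poor libraries, and was the 1 called gene whose lower values did not overlap (-0.93, adjusted p = 0.035). Inhbb, an activin and inhibin subunit (-0.37), Ociad2 (-0.34), Banp (-0.31), the ganglioside synthase gene St8sia1 (-0.31), LOC100361087 (-0.26) and the histone methyltransferase gene Prdm2 (-0.17) overlapped. In 17 omissions the number of lower genes ran from 1 (without OVX replicate 7) to 14 (without Treatment replicate 1), and of these 7 genes LOC100361087 alone was called in every omission.

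Single libraries moved the count of genes called higher. It was 25 without OVX replicate 7, the only choroid-rich OVX library, 54 without SHAM replicate 2 and 144 without Prevention replicate 2, and ran from 56 to 98 in the other 14 omissions. All 26 genes called without OVX replicate 7 were among the 91. Leaving out OVX replicate 7 left 14 of the 24 called members of the 5 epithelial lists. With the Ttr threshold at 20000, 87 genes were called, of which 36 were among the 91, and F5, Slc22a8, Col1a2, Tmem27, Pla2g5, Prr32 and Glycam1 were among those lost, while Kl, Folr1 and Sostdc1 were still called. With the threshold at 2000, Ptgds, Islr, Slc13a3, Sulf1, Htr2c, Bmp7 and Trpc6 lost their calls, as did each of the 7 lower genes except Banp. With the LOC257642 set as a term, Htr2c, Bmp7, Kcne2, Slc6a13, Slc22a6, Aebp1, Mmp2, Slc16a8, C7, Spint2, Ppp1r1c, Inhbb, St8sia1 and Prdm2 were no longer called.

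Libraries left out for their Shox2 value showed the same epithelial genes. In the 6 with Ttr of at least 5000, Kl ran from 331 to 2896, Sostdc1 from 156 to 1143 and Folr1 from 124 to 824. The effect of choroid content was tested against Shox2 class in a fit of all 24 libraries, and 3 of 16117 genes (0.0186%) differed, none on a list. That test has a single library with high Shox2 and low Ttr, SHAM replicate 5, so a miss carries little: for Kl the difference was 1.78 (SE 1.27, adjusted p = 0.97).

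Across the treatment groups the choroid effect could be compared between estradiol (Prevention and Treatment) and vehicle (OVX and SHAM) libraries, with 2 and 4 choroid-rich libraries. Of 16074 genes 1 was called (0.00622%), Cck, the neuropeptide cholecystokinin, which was not called in the main comparison (-0.17, limma adjusted p = 0.64). In estradiol libraries Cck was 6244 and 6499 where choroid-rich and 4892 to 5784 where choroid-poor, and in vehicle libraries 4642 to 5512 and 6204 to 7360, so the difference between effects was 0.78 (SE 0.10, adjusted p = 0.0071). It was no longer called without Prevention replicate 2, Treatment replicate 5 or OVX replicate 7, each of which left no gene called. Kl gave a difference of -1.87 (adjusted p = 0.44), and the 2 choroid-rich estradiol libraries were those with the lowest Ttr of their class, 9262 and 12498.

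Glycam1, a mucin-like ligand of L-selectin known from mammary gland and lymph node vessels, was called higher, and was singled out for a comparison of groups after its values were seen. It ran from 14.1 through 62.5 to 357 in choroid-rich and from 0 through 2.03 to 30.7 in choroid-poor libraries, where the 30.7 belonged to Prevention replicate 3 (4.09, adjusted p = 0.015). With a choroid-poor mean of 6.34, it met the average of 10 needed for testing only through its choroid-rich values. The call was lost without OVX replicate 7 (adjusted p = 0.067) or Treatment replicate 5 (0.063). Per 100 normalised counts of Kl it was 13.7 in Prevention replicate 2 and 18.5 in Treatment replicate 5, but 1.85 in OVX replicate 7 and 1.97, 7.23 and 6.52 in SHAM replicates 1, 3 and 7. In the libraries left out with Ttr of at least 5000 it was 16.2 and 8.48 in Prevention, 15.9 in Treatment, and 1.68, 5.11 and 2.38 in OVX. In the choroid-poor libraries, where Kl was 160 at most, it was 19.2 and 22.5 in Prevention, 2.82, 2.54 and 32.5 in Treatment, 2.36, 0 and 6.25 in OVX, and 0, 12.8 and 0 in SHAM, so Treatment replicates 1 and 2 lay in the range of OVX.

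At a given log2 Ttr, Glycam1 was 2.29 higher in the estradiol groups than in OVX among the 17 libraries (SE 0.56, limma adjusted p = 0.24). That fit called 0 genes of 16074, with 2411 at an unadjusted p under 0.05. In all 24 libraries with Shox2 class as a term it was 2.36 higher (SE 0.40, adjusted p = 0.030), one of 25 genes called of 16117 (0.155%). Prevention libraries all had high LOC257642 and OVX libraries all low, and with that set as a further term the values were 3.33 (adjusted p = 0.999) and 3.43 (adjusted p = 0.19). Treatment replicates 5, 6 and 7, at 18.5, 15.9 and 32.5 Glycam1 per 100 Kl, had low LOC257642. Treatment replicates 1 and 2, at 2.82 and 2.54, had high LOC257642. Their ratios rest on Glycam1 of 0.92 and 0.78 normalised counts, near the floor, at a Kl of 32.7 and 30.8. The cause of the Glycam1 difference was not tested. Without the LOC257642 term, leaving out each of the 17 libraries gave a Glycam1 difference of 2.00 to 2.80. Prlr, another gene of lactation and choroid plexus, differed by 0.24 (adjusted p = 0.65) in the 17 libraries and 0.64 (adjusted p = 0.13) in the 24.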

How the data were processed

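Hippocampal RNA of female rats, 24 libraries, was quantified with kallisto 0.43 and normalised with DESeq2 (no version), per the submitters' processing notes. The deposited table holds normalised counts, a signal per feature and library made by the authors, with 20318 features; the build, annotation, strand setting and filters behind it were not given in the sources used here. Values are not whole and depth is not given, so no count test and no counting interval was used.

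With limma 3.58.1 under R 4.3.3, log2(normalised count + 1) was fitted for every gene averaging at least 10 over the 17 libraries, except Ttr and Shox2, with treatment group as a covariate, empirical Bayes with a mean-variance trend, and Benjamini-Hochberg adjustment over 16074 genes (threshold 0.05). Among the genes described above, Tmem27, Glycam1, Steap1 and Lmx1a averaged under 10 in the choroid-poor libraries and passed this filter through their choroid-rich values. Other genes called higher did so too, among them RGD1563692 (choroid-poor mean 1.80), Zscan10 (3.52), Aldh1a3 (7.39), RGD1564074 (7.71) and Sytl3 (8.95). Tested features with no match to a reference symbol numbered 1976. On simulated data of this design, 83 of 100 genes changed 1.5-fold and 99 of 100 changed 4-fold were recovered, with 9 false calls among 16018 genes. In the measured data some larger changes were not called, as for Lmx1a (5.01-fold), Krt18 (2.11-fold) and Slc4a2 (1.73-fold). An uncalled gene need not have changed by less than 1.5-fold.

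The libraries, thresholds, gene lists and tests were chosen with earlier results of these data known. The rule for naming genes took Folr1 and Kl, the 15 largest rises and 8 largest falls called among genes that have a symbol and average at least 50, up to 4 genes of smallest p per list, and Igf2, Plvap, Mrc1, Prlr, Esr1, Aqp1 and Enpp2. Of these the text gives those whose function is best known, leaving out Esr1 and others; other list members and called genes were picked after their values were seen. Of 218 list genes, 210 were found in the table and 196 tested; Otx2 and Foxj1 were not analysed here. Alternatives were other pseudocounts, filters, normalisations, Ttr and Shox2 thresholds, covariates, a replicate block and leaving out each library. Python 3.11.15 with matplotlib 3.10.9 made the figures.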

Additional observations from a re-analysis of the deposited data

Results flagged for a closer look

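Among 81 genes examined over the 6 choroid-rich libraries, 10 had 1 library far from the other 5. Chance alone flags about 1 in 20 such groups where they are independent. These genes share the same 6 libraries and part of them were picked after their values were seen, so the flags are not independent. In 9 of the 10 the far library was SHAM replicate 7, the library with the highest Ttr. The values there were 1333 for Kcne2 (next 293), 5694 for Slc4a2 (2226), 1246 for Slc31a1 (621), 1286 for Msx1 (474), 311 for Krt18 (83.8), 216 for Plvap (120), 380.5 for Slc16a8 (83.3), 395 for Cdh3 (128) and 3852 for Prdm2 (3571). In the tenth, Cd74, the MHC class II invariant chain, was low in Prevention replicate 2 at 406, with the next library at 852.

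The effect of choroid content differed with Shox2 class for LOC100361240 by 2.57, for LOC100363537 by 3.93 and for RGD1564698 by 4.64 (log2, Shox2 of 100 or more minus under 100, limma adjusted p = 0.048, 5.5e-06 and 0.0004). Each was low in SHAM replicate 5 alone, at 5.40 against 24.9 to 65.8, 31.4 against 266 to 653, and 0.90 against 13.3 to 58.2 in the other 23 libraries. SHAM replicate 5 is the only library with high Shox2 and low Ttr. The effect on Cck differed between estradiol and vehicle groups by 0.78 (adjusted p = 0.0071).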

How the results depend on the processing

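Under the alternatives run, none of the 81 genes examined changed direction, while counts of calls moved. The count of 84 higher became 47 with a mean filter of 100 (fewer genes tested), 54 with the Ttr threshold at 2000, 174 with all 24 libraries and Shox2 class as a term, and 197 with log2 Ttr as a continuous covariate. The count of 7 lower became 3 without the treatment covariate, 3 with the LOC257642 set as a term, 1 with Ttr at 2000 and 24 with all 24 libraries. Called members of the epithelial lists rose from 24 to 37 with continuous Ttr. Called stromal genes fell from 9 to 4 with Ttr at 2000, to 0 with Ttr at 20000, and to 4 without SHAM replicate 7 and the treatment covariate, the last chosen after seeing the data. At 20000 only 3 choroid-rich libraries were left. Where no such construction explains a changed count, the cause was not tested. Within the low LOC257642 set, also chosen after seeing the data, 122 genes were called, 74 of them among the 91.

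With 1 library left out, genes called higher ran from 25 to 144, lower from 1 to 14, epithelial list members from 14 to 28, stromal from 2 to 12, and cilia genes stayed at 0. The lower count was 12 without Prevention replicate 2, 4 without Prevention replicate 3, Treatment replicate 2, Treatment replicate 5 or OVX replicate 1, 3 without SHAM replicate 2, and 2 without SHAM replicates 3, 4 or 6. The interaction with Shox2 class called 3 genes, 1 with a pseudocount of 8 or a mean filter of 100, 6 without a filter, and 2 to 6 (6 without OVX replicate 6) with 1 library left out; without SHAM replicate 5 it could not be fitted. The interaction with estradiol called 1 gene, 4 with a pseudocount of 0.5, 2 with a mean filter of 100, 2 with quantile normalisation, 4 with robust empirical Bayes, and 0 to 10 with 1 library left out (10 without SHAM replicate 4).

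With the replicate block 92 genes were called, 91 of them the reported ones, and the estradiol interaction called 4. Libraries with the same number showed little shared deviation (15 pairs, correlation -0.15 to 0.39, median 0.02). The labels used here do not say what the number stands for, and whether such libraries shared handling was not tested. Precision rests on 6 choroid-rich libraries, with 1 each in Prevention, Treatment and OVX, and read depth is not given.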
